A study of Mus musculus with 12 samples.

Results

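The genes described here are Gpnmb, Trem2, Tyrobp, Spp1, Fabp5, Cd9, Apoe, Lpl, Itgax and Cd36, a set associated with phagocytes that take up lipid. They were found by symbol in the table of raw counts, where all 10 were present among 38087 gene models, and all 10 passed the filter on low counts that left 22384 models for testing. The question was how these genes behave in mouse sciatic nerve before and 5 days after transection, and whether they behave otherwise when the transcription factors TFEB and TFE3 are missing.

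RNA was taken from 4 groups of nerves with 3 biological replicates each, 12 libraries in all. Control mice were Dhh-Cre-, Tfeb flox/flox and Tfe3+, so they carried the floxed Tfeb allele without the recombinase. The double knockout mice, dKO below, were Dhh-Cre+, Tfeb flox/flox and Tfe3KO. Dhh-Cre removes Tfeb in the Schwann cell lineage, whereas Tfe3 was absent from every cell, macrophages included, so effects of the 2 losses, and effects in Schwann cells and in other cells, cannot be told apart in these mice. The injured samples were the distal segments collected 5 days after transection, and the intact samples were uninjured nerves of the opposite side, collected at the same time. The epineurium was removed from the intact nerves only, per the protocol, so injury and this step cannot be told apart. Ages are not stated in the labels.

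After a nerve is cut, the axons and myelin of the distal stump break down, and Schwann cells and incoming macrophages clear the debris. Phagocytes loaded with myelin lipid take on a well-known state in which the lipid-sensing receptor TREM2, signalling through the adaptor TYROBP, goes with genes for lipid binding, transport and storage. Gpnmb, a glycoprotein of lysosomes and the cell surface, is a known target of the MiT family of transcription factors, to which TFEB, TFE3 and MITF belong, and is made by macrophages as well as by cells of the neural crest lineage.

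Of the sequences that RefSeq gives for the regions before the transcription starts, 3 are shown because they belong to genes of the macrophage state whose levels are compared below. Each is the last 80 bases before a start (GRCm38.p6, plus strand). Capitals mark a match on either strand to the letters TGANTCA, searched as a loose form of the AP-1 motif with any base at N. The motifs searched also included the E-box CACGTG that TFEB and TFE3 bind, its extended form TCACGTGA, the M-box TCATGTG and the PU.1 motif GAGGAAGT.
Gpnmb, chr6:49036438-49036517: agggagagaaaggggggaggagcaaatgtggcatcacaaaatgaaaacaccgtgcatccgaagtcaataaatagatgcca
Trem2, chr17:48346321-48346400: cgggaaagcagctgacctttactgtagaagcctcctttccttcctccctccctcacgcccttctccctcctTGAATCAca
Itgax, chr7:128129470-128129549: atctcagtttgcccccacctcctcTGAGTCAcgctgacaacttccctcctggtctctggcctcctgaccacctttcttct

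In the whole 250 bases before each start, 10 windows were listed for Gpnmb, Trem2, Spp1, Cd9, Apoe, Itgax and Cd36, and none for Tyrobp, Fabp5 and Lpl. The AP-1 letters occurred in the windows of Trem2, as TGAATCA, and Itgax, as TGAGTCA, and 6.75% of all 32851 windows hold them. The PU.1 letters occurred in 1 window of Spp1 and in 2.44% of all windows. The letters of the E-box, found in 6.02% of all windows, of its extended form, found in 0.785%, and of the M-box, found in 3.25%, were in none of the 10 windows of these genes. These are matches of letters and not measured binding.

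Levels are given as CPM, the counts of a gene relative to the size of its library, with TMM scaling. Library totals ran from 15430999 to 35845371 counts. Tfe3 gave 62.1, 60.8 and 56.7 CPM in intact control nerves and 46.4, 47.4 and 43.3 CPM in intact dKO nerves, and 61.7, 67.6 and 55.0 against 52.4, 53.8 and 49.5 CPM at 5 days. Tfeb read 22.6, 23.9 and 26.9 against 17.0, 19.5 and 17.3 CPM in intact nerve, and 24.0, 18.2 and 18.4 against 14.2, 19.6 and 29.8 CPM at 5 days. Tfe3 was thus lower in every dKO library than in any control library of the same state, but most of its reads remained. Counts over a whole gene model take in exons outside a deleted part, so they check the genotype only weakly. Macrophage markers, 20 genes, summed to 539.5 to 764 CPM for control and 560.1 to 766 CPM for dKO intact nerve, and to 2156 to 3363 and 2144 to 2762 CPM at 5 days, with none at 0 in any library. The 8 Schwann cell markers, which define the main cell of the nerve, summed to 62452 to 81277 CPM for control and 67601 to 73253 CPM for dKO intact nerve, and to 2123 to 3087 and 3955 to 4732 CPM at 5 days. A second set of libraries, marked by reads on 174 to 366 olfactory receptor genes at equal depth against 54 to 74 in the others, held all 3 dKO libraries at 5 days and only control replicate 4 at 5 days. Control replicate 1 at 5 days was called female, with 10712 Xist counts beside 244 counts of Y-linked genes, and the other 11 libraries were male. The source of its Y-linked counts was not tested. Its 4 red cell markers summed to 11430 CPM, against 234 to 1697 CPM in the other injured libraries.

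Gpnmb (chr6:49036546-49070929, plus strand, GRCm38) had the largest log2 difference between genotypes at 5 days among the 10 genes. It read 53.6, 57.5 and 53.3 CPM in uninjured control nerve and 299, 322 and 375 CPM in control nerve at 5 days. In dKO it read 34.4, 25.7 and 21.1 CPM in intact nerve and 46.6, 43.5 and 29.5 CPM at 5 days. Every injured dKO library was therefore below even the lowest intact control library, and no 2 groups overlapped except the intact and injured dKO nerves.

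With injury, Gpnmb rose 6.06-fold in control nerve (log2 fold change 2.60, SE 0.19, edgeR adjusted p = 8.20e-08). In dKO nerve the change was 1.48-fold (log2 0.56, SE 0.18, edgeR adjusted p = 0.0224). That smaller call was lost with a term for the second library set (log2 0.29, edgeR adjusted p = 0.596), in a fit of the compared groups only (adjusted p = 0.0545), and without any 1 of dKO intact replicates 3 and 4 or dKO replicates 2 and 3 at 5 days (log2 0.40 to 0.52, edgeR adjusted p 0.0765 to 0.107).

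At 5 days Gpnmb was 8.31-fold lower in dKO than in control nerve (log2 -3.05, 95% interval -3.47 to -2.64, edgeR adjusted p = 4.90e-07). The difference between the 2 injury changes was -2.04 on the log2 scale (SE 0.26, edgeR adjusted p = 0.000694). With the injured control libraries outside the second set left out, the genotype value was -3.23. That fit holds 1 injured control library, so its spread comes from the other groups, the intact libraries of both genotypes included. In intact nerve the groups did not overlap, with a log2 value of -1.02 (SE 0.18), but the difference did not pass over all genes tested (edgeR unadjusted p = 7.86e-05 and adjusted p = 0.254, a model fitted across all genes and not an exact test). DESeq2 called this difference (log2 -1.03, adjusted p = 0.000572).

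Trem2 (chr17:48346401-48354147, plus strand), the lipid-sensing receptor, rose in both genotypes. Intact control nerves gave 3.77, 5.33 and 2.07 CPM and intact dKO nerves 3.45, 3.26 and 2.95 CPM. After transection the control nerves gave 44.5, 44.8 and 50.9 CPM and the dKO nerves 32.3, 39.1 and 45.2 CPM. The injured libraries were all far above the intact ones, and the 2 genotypes overlapped in each state.

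The rise of Trem2 was 12.6-fold in control (log2 3.66, SE 0.26, edgeR adjusted p = 4.79e-08) and 12.04-fold in dKO nerve (log2 3.59, SE 0.26, edgeR adjusted p = 9.14e-08). The difference between genotypes at 5 days was -0.27 on the log2 scale with a 95% interval of -0.75 to 0.22 (edgeR adjusted p = 0.474), so a decrease as large as that of Gpnmb lay outside this interval.

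Tyrobp (chr7:30413760-30417585, plus strand), the adaptor through which TREM2 signals, gave 6.55, 8.23 and 4.81 CPM in intact control nerves and 7.92, 5.76 and 4.38 CPM in intact dKO nerves. Injured control nerves read 30.6, 39.1 and 45.3 CPM and the dKO nerves 33.5, 43.1 and 37.0 CPM, and the genotypes overlapped. It rose 5.88-fold in control (log2 2.55, edgeR adjusted p = 7.42e-07) and 6.30-fold in dKO nerve (log2 2.66, edgeR adjusted p = 7.89e-07). Its genotype difference at 5 days was -0.016 (95% interval -0.49 to 0.46), a value that was slightly above 0 under DESeq2 size factors (0.012) and upper-quartile factors (0.084).

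Of 17 genes that act with TREM2 and TYROBP or downstream of them, 14 rose and 1 fell with injury in each genotype. Over all genes tested, 24.4% rose and 22.4% fell in control nerve, and 22% rose and 22.6% fell in dKO nerve. The kinase Syk, which is recruited by TYROBP, rose in control (log2 2.31) and in dKO nerve (log2 1.95), as did the exchange factor Vav1 (2.79 and 2.69) and the phosphatase Ptpn6 (1.95 and 2.15). Hcst, the other adaptor that pairs with TREM2, rose by 2.59 and 1.92. Adam10, a protease that sheds surface proteins including TREM2, was the gene that fell (log2 -1.98 and -2.18). The median log2 change of the list was 1.68 in control and 1.68 in dKO nerve, against 0.093 and 0.051 over all genes tested. At 5 days, where 3.12% of all genes were higher and 8.97% lower in dKO, none of the 17 was higher and 2 were lower, Grb2 (log2 -0.34, edgeR adjusted p = 0.0346) and Adam10 (log2 -0.60, edgeR adjusted p = 0.0373). Both calls were lost with the library set term (edgeR adjusted p 0.720 and 0.638). The Grb2 call was lost in 12 of 16 alternatives in all and the Adam10 call in 11 of 16. The list median was 0.055 against -0.018 over all genes.

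Itgax (chr7:128129547-128150657, plus strand), which encodes the integrin chain CD11c, was the least abundant of the 10 genes per base of exon, at 1.74 CPM per kilobase in injured control nerve. In intact nerve, control libraries had 1.10, 0.992 and 0.738 CPM and intact dKO nerves 1.03, 0.945 and 0.305 CPM, the lowest value resting on 9 counts. The injured control libraries had 6.73, 11.2 and 7.11 CPM and the dKO nerves 4.05, 6.67 and 6.24 CPM. All injured libraries were above all intact ones, and the injured dKO libraries were just below the injured control libraries.

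Itgax rose 8.84-fold in control (log2 3.14, SE 0.41, edgeR adjusted p = 1.80e-05) and 7.39-fold in dKO nerve (log2 2.89, SE 0.41, edgeR adjusted p = 5.49e-05). The genotype value at 5 days was -0.56 (95% interval -1.34 to 0.21, edgeR adjusted p = 0.339), and did not pass. Its partner chain Itgb2 rose by 1.78 and 1.68 on the log2 scale and did not pass between genotypes (-0.10, edgeR adjusted p = 0.858). CD11c is also made by dendritic cells, and 7 markers of these cells were tested, of which 5 rose and 1 fell after transection in control mice (24.4% and 22.4% of all genes). In dKO mice 6 of them rose (22% of all genes). Their part in the Itgax values was not tested.

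**Figure D1:**
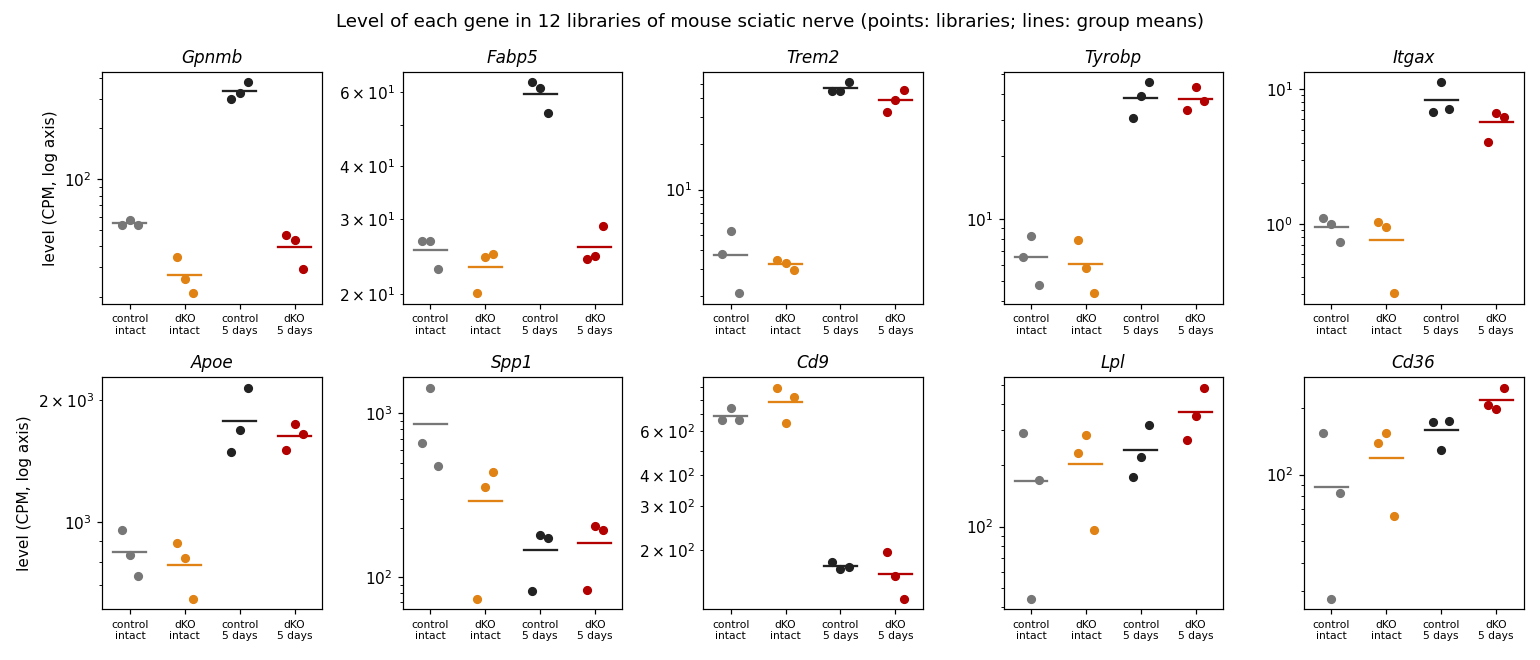
Level of each of the 10 genes in CPM on a log axis, by group. Points are libraries, 3 per group, and lines are group means. Gpnmb and Fabp5 are high only in control nerve at 5 days, Trem2, Tyrobp, Itgax and Apoe are high in both injured groups, and Cd9 is low in both.

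Fabp5 (chr3:10012548-10016607, plus strand) encodes a fatty acid carrier of the cytoplasm that is abundant in lipid-loaded macrophages and is also induced in cells of injured nerve. Before injury, control nerves gave 26.7, 26.7 and 22.9 CPM and intact dKO nerves 20.1, 24.4 and 24.8 CPM. At 5 days the controls read 63.1, 61.3 and 53.5 CPM and the dKO nerves 24.1, 24.6 and 28.9 CPM. The injured control libraries stood above all 9 others, which overlapped with each other.

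Fabp5 rose 2.33-fold in control nerve (log2 1.22, SE 0.13, edgeR adjusted p = 1.96e-06), and its value in dKO nerve, 0.16 (SE 0.13), did not pass (edgeR adjusted p = 0.319). At 5 days it was 2.30-fold lower in dKO (log2 -1.20, 95% interval -1.47 to -0.93, edgeR adjusted p = 3.71e-05). The difference between the injury changes was -1.06 (SE 0.18, edgeR adjusted p = 0.00459). With the library set term this became -0.91 (edgeR adjusted p = 0.0686) and no longer passed.

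Reads of Fabp5 cannot be separated with certainty from those of 2 processed copies, Gm6166 (chr9:57483963-57484371) and Gm14328. The copies match its transcript at 98.3% over 409 bases and 97.3% over 408 bases, and carried 16869 and 6677 counts over the 12 libraries against 11533 for Fabp5 itself. The closeness can be seen in 60 aligned bases of the GENCODE M21 transcripts, chosen as the stretch without gaps that holds most differences, with the 2 that differ in capitals.
Fabp5: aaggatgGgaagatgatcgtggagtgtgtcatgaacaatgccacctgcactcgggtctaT
Gm6166: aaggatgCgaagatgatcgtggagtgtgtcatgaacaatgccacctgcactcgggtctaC

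The 2 copies had the same order of groups at 5 days as Fabp5. Gm6166 read 116, 97.8 and 89.4 CPM for control and 32.6, 34.7 and 39.2 CPM for dKO nerve at 5 days (log2 -1.51, edgeR adjusted p = 9.99e-05). Gm14328 read 39.7, 34.4 and 36.6 CPM against 13.1, 15 and 20.7 CPM (log2 -1.19, edgeR adjusted p = 0.000866). With all 3 models summed as 1 gene, the genotype difference at 5 days was -1.35 (edgeR adjusted p = 5.09e-05) and the difference of injury changes -0.99 (edgeR adjusted p = 0.0165). The change with injury in dKO nerve then passed the threshold, at a log2 value of 0.43 (edgeR adjusted p = 0.0284), against 1.42 in control nerve.

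Among the other fatty acid binding proteins, 5 of 8 could be tested. Injury raised 2 and lowered 1 in control (24.4% and 22.4% of all genes) and raised 1 and lowered 1 in dKO nerve (22% and 22.6%). At 5 days 1 was higher and 1 lower in dKO (3.12% and 8.97% of all genes). With 5 genes these counts are too few to be read against the shares, and the rises of Fabp3 in control and of Fabp12 in dKO nerve were each lost in 10 of 15 alternatives. Pmp2, the fatty acid binding protein of peripheral myelin, went the opposite way from Fabp5. Intact nerves of control mice read 609.9, 960.3 and 684 CPM and intact dKO nerves 558, 778 and 868 CPM. The injured controls dropped to 69.9, 83.1 and 70.2 CPM, while the injured dKO nerves had 605, 572 and 495 CPM. The injured control libraries alone were low. Pmp2 fell by 3.34 on the log2 scale in control nerve (edgeR adjusted p = 7.57e-09), its value in dKO nerve, -0.40, did not pass (edgeR adjusted p = 0.0868), and at 5 days it was 7.49-fold higher in dKO (log2 2.91, edgeR adjusted p = 5.36e-07). Fabp7, the brain-type member, was lower in dKO at 5 days (log2 -2.47, edgeR adjusted p = 0.00147). Its levels were low, with means of 2.20 CPM in intact and 2.27 CPM in injured control nerve. Fabp4, the fat-cell member, passed in no comparison.

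**Figure D2:**
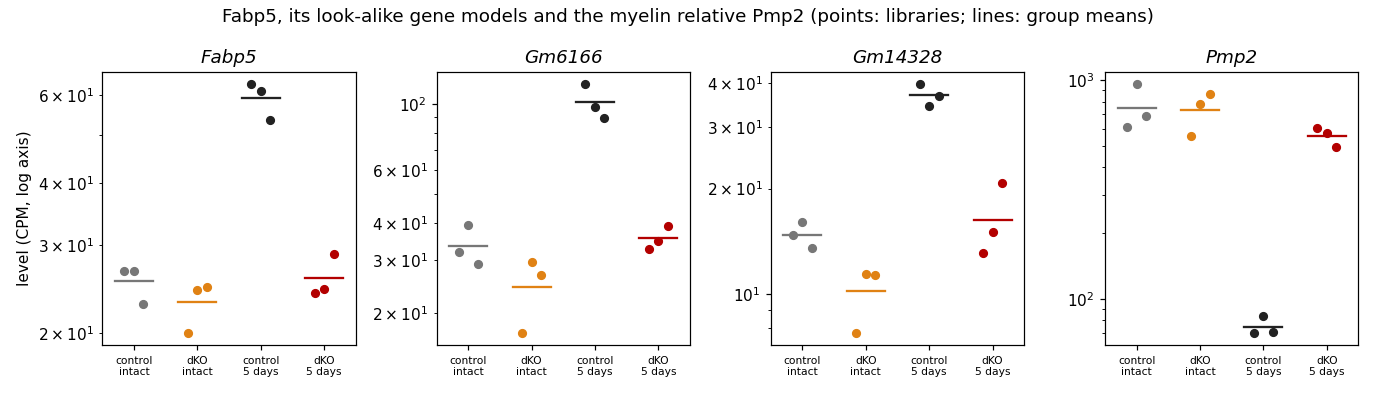
Level in CPM on a log axis of Fabp5, of its look-alike gene models Gm6166 and Gm14328, and of Pmp2, by group. Points are libraries, 3 per group, and lines are group means. Fabp5 and both copies are highest in control nerve at 5 days, where Pmp2 is lowest, at 69.9 to 83.1 CPM.

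Apoe (chr7:19696109-19699188, minus strand), the main lipoprotein component made by glia and macrophages, was the most abundant of the 10 per base of exon at 5 days, at 830.4 CPM per kilobase in control nerve. Without injury, control libraries gave 959.7, 833 and 737 CPM and intact dKO nerves 887, 815 and 649 CPM. After transection the control nerves gave 1494, 1685 and 2147 CPM and the dKO nerves 1505, 1749 and 1648 CPM. The genotypes overlapped in both states and the injured libraries were all higher than the intact ones.

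Apoe rose 2.11-fold in control (log2 1.07, SE 0.15, edgeR adjusted p = 4.81e-05) and 2.08-fold in dKO nerve (log2 1.06, SE 0.15, edgeR adjusted p = 7.01e-05). With the library set term the rise in dKO was 0.63 and did not pass (edgeR adjusted p = 0.0971). The genotype difference at 5 days was -0.12 with a 95% interval of -0.45 to 0.21.

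Lpl (chr8:68880491-68907448, plus strand), the lipase that frees fatty acids from lipoproteins, and Cd36 (chr5:17781690-17888801, minus strand), a scavenger receptor that takes up fatty acids, passed in no comparison. Lpl gave 288, 44.2 and 169.9 CPM in intact control nerves and 231, 281 and 96.5 CPM in intact dKO nerves, and 174, 219.6 and 317 CPM against 268, 352 and 483 CPM at 5 days. Cd36 gave 154, 27.7 and 82.8 CPM in intact control nerves and 139, 154 and 64.9 CPM in intact dKO nerves, and 172, 129 and 175 CPM against 206, 197 and 246 CPM at 5 days. At 5 days all dKO libraries were above all control libraries for Cd36 (log2 0.45, edgeR adjusted p = 0.633). In dKO mice all injured libraries were also above all intact ones for Cd36 (log2 0.86, edgeR adjusted p = 0.226). Both Lpl and Cd36 were lowest in control intact replicate 2 and next lowest in dKO intact replicate 4.

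The same 2 libraries had the least RNA of fat cells. The 7 fat cell markers summed to 2340.2, 255 and 1526 CPM for control and 2098, 2449.6 and 599 CPM for dKO intact nerve, and to 1564 to 2766 CPM at 5 days. Taken relative to the mean log2 level of these markers, an added comparison, Cd36 had group means of 0.31, 0.19, 0.26 and 0.24 in control intact, dKO intact, control injured and dKO injured nerve, with a pooled replicate SD of 0.29. Lpl had group means of 1.17, 0.92, 0.81 and 0.97 with a pooled SD of 0.38, so the groups of both genes differed by about the replicate spread or less. The part of fat tissue in their levels was not tested. Gpihbp1, which holds LPL on the vessel wall, passed in no comparison. For Cd36 the injury value in control nerve, 0.85 (edgeR adjusted p = 0.234), passed only without control intact replicate 1 (log2 1.45, edgeR adjusted p = 0.0433).

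**Figure D3:**
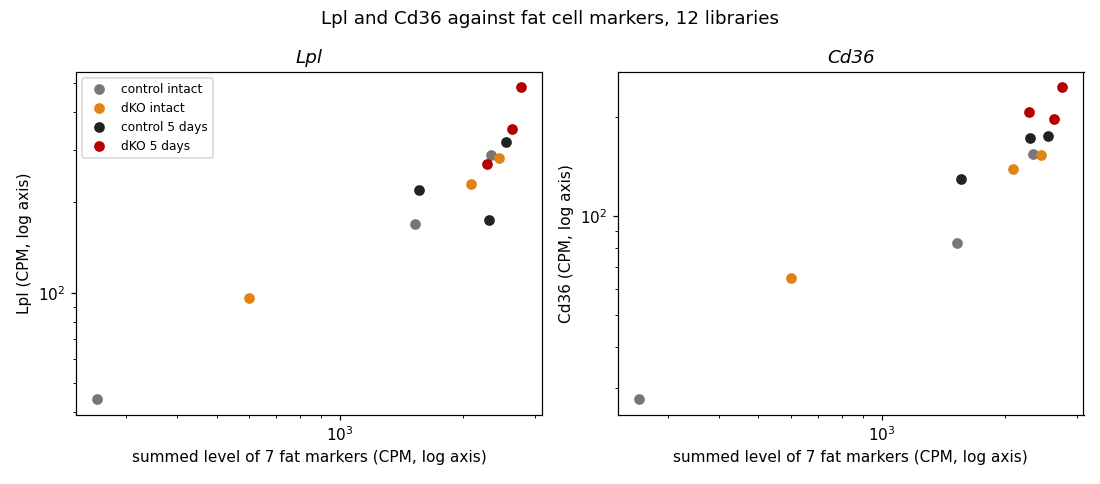
Level of Lpl and of Cd36 against the summed level of 7 fat cell markers, both in CPM on log axes. Points are the 12 libraries, coloured by group. The 2 libraries with the lowest marker sums, 255 and 599 CPM, also have the lowest levels of both genes.

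Of 25 further genes of lipid uptake, storage and efflux, 24 were tested, and 10 rose and 9 fell with injury in control nerve, where 24.4% and 22.4% of all genes did. In dKO nerve 7 rose and 7 fell, beside 22% and 22.6% of all genes. The cholesterol exporter Abca1 rose by 4.38 in control and 2.86 in dKO nerve on the log2 scale, and the cholesterol-esterifying enzyme Soat1 rose by 2.41 and 1.76. Apoc2, the cofactor of LPL, rose by 4.60 and 4.81. The median was 0.25 and 0.14, against 0.093 and 0.051 over all genes.

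At 5 days 2 of the 24 were higher in dKO and 8 were lower, beside 3.12% and 8.97% of all genes. The lysosomal lipase Lipa read 377, 329 and 323 CPM for control and 102, 103 and 91.3 CPM for dKO nerve (log2 -1.80, edgeR adjusted p = 1.22e-07). Abca1 read 737, 643 and 577 CPM against 285, 237 and 226 CPM (log2 -1.39, edgeR adjusted p = 0.000129). The groups did not overlap for either gene. Npc1, which moves cholesterol out of lysosomes (log2 -1.14, edgeR adjusted p = 0.000162), Soat1 (log2 -0.92, edgeR adjusted p = 0.000257) and the lipid droplet coat gene Plin2 (log2 -0.89, edgeR adjusted p = 0.00891) were also lower. The list median at 5 days was -0.19, against -0.018 over all genes.

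Spp1 (chr5:104435118-104441050, plus strand) encodes osteopontin, a secreted ligand of integrins and CD44 that phagocytes and Schwann cells are both known to make. The intact control libraries read 658, 1435 and 478 CPM and intact dKO nerves 74.0, 354 and 441 CPM. Injured control nerves read 82.3, 182 and 172 CPM and the dKO nerves 83.5, 205 and 193 CPM. It had the widest spread among replicates of the genes that changed, and dKO intact replicate 2 lay below every injured library.

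Spp1 fell 5.89-fold with injury in control nerve (log2 -2.56, SE 0.73, edgeR adjusted p = 0.0190). The call was lost with a term for sex (adjusted p = 0.0634), without control intact replicate 2 (adjusted p = 0.0634) and without control replicate 1 at 5 days (edgeR adjusted p = 0.0651). In dKO nerve the value was -0.85 (95% interval -2.45 to 0.75) and did not pass, and the difference of injury changes, 1.71 (edgeR adjusted p = 0.460), did not pass either. In intact nerve the dKO libraries were all below the control libraries (log2 -1.57, edgeR adjusted p = 0.856). At 5 days the value was 0.14 (95% interval -1.44 to 1.73), an interval too wide to show whether the genotypes differ, and its sign turned with the library set term (-0.10). A predicted gene, Gm42793, shares 309 exon bases with Spp1 on the same strand and is not among the models used here, so its reads could be counted with those of Spp1.

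Cd9 (chr6:125460266-125494791, minus strand), a tetraspanin of the cell surface that macrophages and myelinating Schwann cells both express, fell in both genotypes. Intact control nerves gave 663, 742 and 661 CPM and intact dKO nerves 895, 645 and 821 CPM. The injured control libraries had 178, 167 and 170.4 CPM and the dKO nerves 197, 158 and 128 CPM. Intact and injured libraries were far apart and the genotypes overlapped.

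The fall of Cd9 was 4.00-fold in control (log2 -2.00, SE 0.15, edgeR adjusted p = 9.83e-08) and 4.89-fold in dKO nerve (log2 -2.29, SE 0.16, edgeR adjusted p = 4.61e-08). Of the 8 Schwann cell markers, 7 fell and 1 rose in control nerve (22.4% and 24.4% of all genes). In dKO nerve all 8 fell (22.6% of all genes). Their median log2 change was -0.97 in control and -1.81 in dKO nerve, against 0.093 and 0.051 over all genes. Their part in the fall of Cd9 was not tested. The genotype difference of Cd9 at 5 days was -0.097 (95% interval -0.42 to 0.22), and was 0.014 with upper-quartile factors. The antisense transcript Gm26728 shares 218 exon bases with Cd9, and since the use of strand in counting is not given, its reads cannot be told apart from those of Cd9.

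Among 14 adhesion genes that pair with these proteins, injury raised 2 and lowered 6 in control (24.4% and 22.4% of all genes), and raised 5 and lowered 5 in dKO nerve (22% and 22.6%). The list median was -0.25 in control and 0.036 in dKO nerve, against 0.093 and 0.051 over all genes. At 5 days 3 were higher and 1 lower in dKO (3.12% and 8.97% of all genes), with a median of 0.12 against -0.018. Cd44, the receptor of osteopontin, rose by 2.64 and 2.40 and was lower in dKO at 5 days (log2 -0.74, edgeR adjusted p = 0.0123), a call lost in 5 of 16 alternatives, among them the library set term (edgeR adjusted p = 0.393) and the term for sex (edgeR adjusted p = 0.0571). Sdc4, Cd151 and Igsf8 were higher in dKO at 5 days (log2 0.47, 0.37 and 0.46), and these calls were also lost with the library set term (edgeR adjusted p 0.191 to 0.431). Of 16 alternatives, the Igsf8 call was lost in 10, the Cd151 call in 7 and the Sdc4 call in 4. Cd81, the close relative of Cd9, did not pass in control (log2 -0.17) and fell in dKO nerve (log2 -0.29, edgeR adjusted p = 0.0184).

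Counted together, 6 of the 10 genes rose and 2 fell with injury in control nerve, where 24.4% of all tested genes rose and 22.4% fell. In dKO nerve 5 rose and 1 fell, where 22% of all genes rose and 22.6% fell. The median log2 change of the 10 was 1.15 in control and 0.86 in dKO nerve, against 0.093 and 0.051 over all genes. Between genotypes in intact nerve none passed in edgeR, where 0.00447% of all genes passed, and 1 of the 10 had an unadjusted p under 0.05. DESeq2 called 1 of the 10 there, Gpnmb. Over all 22384 genes DESeq2 called 3 higher and 4 lower in dKO.

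At 5 days none of the 10 was higher and 2 were lower in dKO, where 3.12% of all genes were higher and 8.97% lower. Their median was -0.11, against -0.018 over all genes. The difference of the injury changes passed for the same 2 genes, Gpnmb and Fabp5, both lower in dKO, where 0.737% of all genes were higher and 2.17% lower. The comparisons share libraries, so these counts are not independent of each other.

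**Figure D4:**
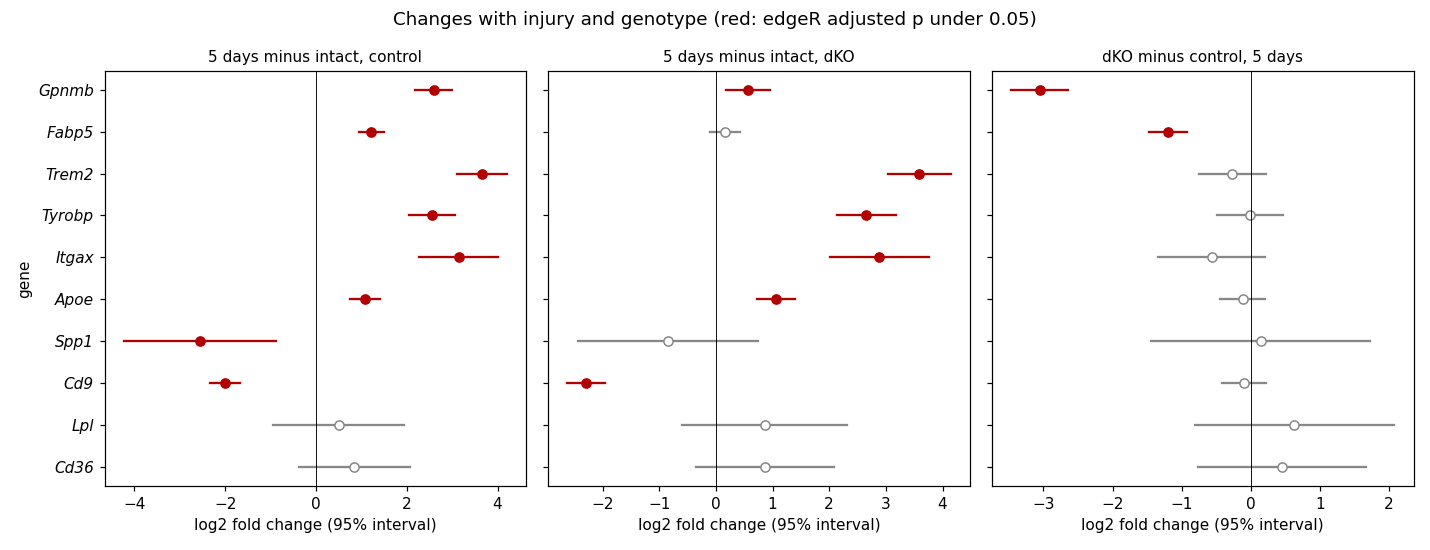
Log2 fold changes of the 10 genes with 95% intervals for injury in control, injury in dKO, and dKO against control at 5 days. Red marks an edgeR adjusted p under 0.05, and zero is the vertical line. At 5 days only Gpnmb, at -3.05, and Fabp5, at -1.20, are red.

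In bulk tissue, fewer cells of a type and less RNA per cell cannot be told apart. Each gene was therefore also set against the mean log2 level of the 20 macrophage markers in the same library, as a description without a test. Injury raised 17 of these markers in control (24.4% of all genes), and raised 17 and lowered 1 in dKO nerve (22% and 22.6%). Between genotypes at 5 days 1 was higher in dKO, Cd14, and 1 lower, Cd68 (3.12% and 8.97% of all genes).

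Relative to the markers, Gpnmb stood at 1.45, 1.31 and 1.74 in control and 0.65, 0.15 and 0.39 in dKO intact nerve, and at 2.12, 1.85 and 1.91 in injured control and -0.61, -1.02 and -1.33 in injured dKO nerve. The genotype difference at 5 days was -2.95 on this scale and -3.06 without the markers, with a pooled replicate SD of 0.26. With injury, the relative level of Gpnmb thus moved by 0.46 in control and by -1.38 in dKO nerve. Against the median of the markers in place of their mean, the value in control was 0.18.

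Trem2 gained 1.43 on the markers in control and 1.46 in dKO nerve, with a pooled SD of 0.25, and its genotype difference at 5 days was -0.16. Tyrobp stood within a narrow band at 5 days, -1.18 to -1.12 in control and -1.08 to -1.01 in dKO nerve, and its difference was 0.11 with a pooled SD of 0.14. Fabp5 differed by -1.07 at 5 days, with a pooled SD of 0.31. Itgax differed by -0.40 (pooled SD 0.28) and Apoe by 0.010 (pooled SD 0.15). With injury, Fabp5 fell behind the markers, by -0.92 in control and -1.77 in dKO nerve, and so did Apoe, by -1.06 and -0.86. Tyrobp gained 0.35 and 0.65 on the markers and Itgax 0.46 and 0.38.

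**Figure D5:**
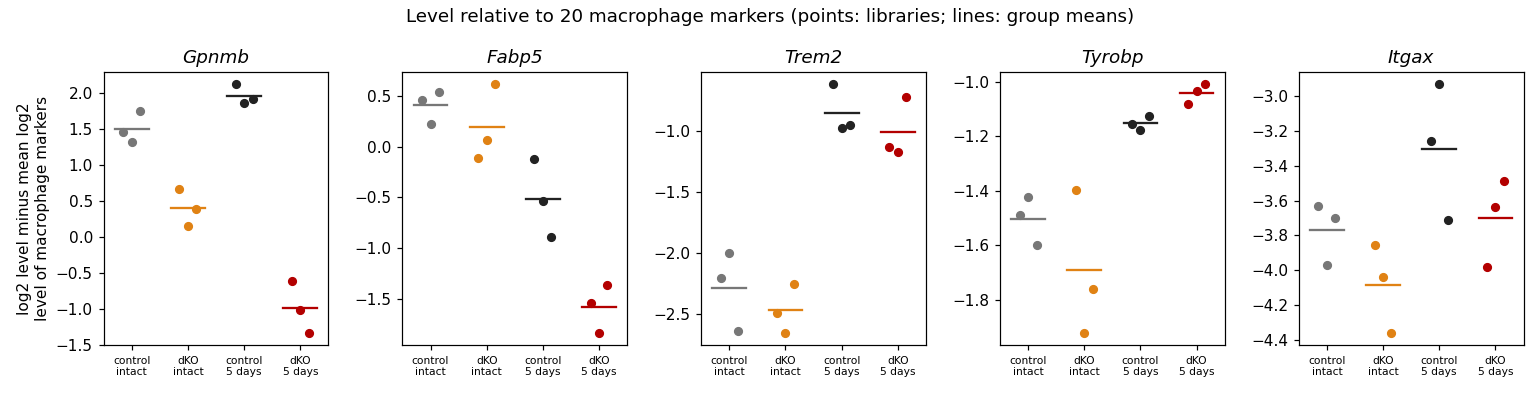
Log2 level of Gpnmb, Fabp5, Trem2, Tyrobp and Itgax minus the mean log2 level of 20 macrophage markers in the same library. Points are libraries, 3 per group, and lines are group means. Gpnmb lies at 1.85 to 2.12 in control and at -1.33 to -0.61 in dKO nerve at 5 days, and Trem2 overlaps between genotypes.

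A list of 26 further genes known from lipid-loaded phagocytes behaved in 2 ways. Injury raised 17 and lowered 2 in control (24.4% and 22.4% of all genes), and raised 17 and lowered none in dKO nerve (22% and 22.6%). The list medians were 1.49 and 1.13, against 0.093 and 0.051 over all genes. At 5 days 1 was higher in dKO, the protease inhibitor Serpine2 (log2 1.14, edgeR adjusted p = 6.05e-05), and 9 were lower, beside 3.12% and 8.97% of all genes (list median -0.29, against -0.018). Lgals3, which encodes the galectin that marks damaged lysosomes, read 2367, 2243 and 2031 CPM for control and 163, 145 and 144 CPM for dKO nerve (log2 -3.88, edgeR adjusted p = 7.79e-11). Atp6v0d2, a subunit of the vacuolar proton pump, read 69.5, 80.7 and 74.7 CPM against 3.23, 6.72 and 4.45 CPM (log2 -3.96, edgeR adjusted p = 4.01e-06). The groups were far apart for both genes. The lysosomal genes Ctsd (log2 -0.80) and Cd63 (log2 -0.77) were lower as well, whereas the growth factor Igf1, which rose with injury by 1.63 and 1.85, did not pass between genotypes (log2 0.087, edgeR adjusted p = 0.896).

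Mitf, a relative of Tfeb and Tfe3 that was left intact in both genotypes, passed in no comparison. Its value at 5 days was 0.029 (95% interval -0.25 to 0.31). Of the 4 family genes Tfeb, Tfe3, Mitf and Tfec, 1 rose with injury in each genotype (24.4% of all genes in control and 22% in dKO nerve). Tfec, also not among the deleted genes, had low mean levels of 0.98 CPM in intact control nerve and 3.16 CPM in injured control nerve.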

How the data were processed

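The values are the deposited raw counts, whole numbers of reads for each gene model, which the authors made from polyA RNA libraries of an Ion Torrent total RNA kit, per the labels' protocols. The submitters' processing notes name mm10, DESeq2 and R 4.2.1. The labels do not state the aligner, counting tool, strand use or annotation. A table of normalized values was left unused. Symbols that stood on several lines numbered 278, and no column lacked a sample.

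The test was that of edgeR 4.0.16, run in R 4.3.3: filterByExpr over the 4 groups (minimum count 10), TMM factors, 1 robust quasi-likelihood model over all 12 libraries with a mean per group, and F-tests. P-values were Benjamini-Hochberg adjusted over all 22384 models of each comparison and called at 0.05. Fold changes are on the log2 scale and intervals are 95%. Relative levels are differences of log2(CPM + 0.5). Levels per kilobase use all exon bases of a gene in GENCODE M21. The script was tested on simulated counts first. DESeq2 1.42.0, other scalings, filters, covariates and left-out libraries were alternatives. Added after seeing the data were the fit without injured controls outside the second set, levels relative to fat markers and the summed Fabp5 copies. With 3 libraries against 3 an exact permutation test cannot go below 0.1, so none was used. No pair of replicates agreed within counting noise (chi-square per degree of freedom at least 18.3). P-values weigh a difference against the spread between these samples, which the model shares across groups and moderates across genes.

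The genes and the lists were chosen with earlier results of these data known. The genes named are the 10 members, up to 4 per list and comparison with the smallest p, and the stated partners of the members. Plin2, Cd63, Igf1, Cd14, Cd68 and Tfec were named after their values were seen.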

Additional observations from a re-analysis of the deposited data

Results flagged for a closer look

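The change with injury differed between genotypes, by the edgeR test of the difference itself, for Gpnmb (log2 -2.04) and Fabp5 (log2 -1.06) among the 10 genes. It differed likewise for the lysosomal and lipid genes Lgals3 (log2 -4.02), Atp6v0d2 (log2 -3.68), Lipa (log2 -1.75), Abca1 (log2 -1.52), Npc1 (log2 -0.93) and Ctsd (log2 -0.74), which were lower in dKO, and for Pmp2 (log2 2.94) and Serpine2 (log2 1.21), which were higher. With the library set term the differences of Fabp5, Abca1, Npc1 and Ctsd no longer passed (edgeR adjusted p 0.0686, 0.0595, 0.206 and 0.0952). Over all alternatives run, the Npc1 difference was lost in 10 of 20 and the Ctsd difference in 4 of 20, while those of Abca1 (1 of 20) and Fabp5 (1 of 21) were lost with that term alone. All samples of dKO at 5 days belong to the second library set, so the set and the injured dKO group can be separated only through 1 control library.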

How the results depend on the processing

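The calls of Gpnmb and Fabp5 at 5 days held in every alternative run, as did those of Trem2, Tyrobp, Itgax and Cd9 with injury in both genotypes. The number of the 10 genes called stayed within 1.5 times its value except in 2 cases. DESeq2 called 1 in intact nerve, where it called 3 higher and 4 lower over all 22384 genes. The library set term left 1 in the difference of injury changes, where 75 were higher and 97 lower over all 22384 genes. Leaving out 1 library at a time gave 7 to 9 calls for injury in control and 5 to 6 in dKO nerve. Over all genes these fits called 4420 to 5324 rises and 4515 to 5245 falls in control, of 22946 to 23052 tested. In dKO nerve they called 3729 to 4280 rises and 4385 to 4785 falls, of 22729 to 23052 tested. With the replicate numbers as a block (replicate block) the counts were 8, 6, 0, 2 and 2 in the 5 comparisons. Over all 22384 genes this fit called 4814 rises and 4605 falls in control and 4446 and 4867 in dKO nerve. Between genotypes it called 0 in intact nerve, and 349 higher and 1037 lower in dKO at 5 days. For the difference of injury changes it called 116 higher and 294 lower. The replicate block joins same-numbered samples of both genotypes, so it does not model 2 nerves of 1 animal. Control number 1 was male in intact nerve and called female at 5 days, so these libraries cannot both come from 1 mouse alone. The main fit treated all libraries as independent. Same-numbered samples did not deviate together in every pair (correlations -0.18 and 0.0082 in control, 0.29, 0.32 and 0.0066 in dKO), so the numbers were not taken as pairs. Upper-quartile factors moved the median of all genes in dKO injury to 0.19 on the log2 scale and its split of calls to 6246 rises and 4044 falls, from 4930 and 5067. No call of the 10 genes turned with it.

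Signs turned only for values that did not pass. At 5 days Tyrobp was 0.012 with DESeq2 size factors and the stricter filter, 0.010 with the compared groups only, 0.011 with DESeq2 and 0.084 with upper-quartile factors, where Cd9 was 0.014. Spp1 was -0.23 with the replicate block, -0.10 with the library set term and without injured controls outside the second set, and -0.14 with sex. For the difference of injury changes, Trem2 was 0.058 with upper-quartile factors and 0.011 with the block, Tyrobp -0.14 with the set term and -0.038 with sex, Apoe 0.026 with DESeq2 size factors and DESeq2, 0.10 with upper-quartile factors and 0.012 with the stricter filter, Lpl -0.011 with the block and -0.064 with the set term, and Cd36 -0.016 without a filter, -0.30 with the block and -0.12 with the set term. The causes were not tested.

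Leaving out 1 library, the genotype value in intact nerve ran from -0.50 to 0.16 for Trem2, -0.36 to 0.10 for Tyrobp, -0.20 to 0.013 for Apoe, -0.16 to 0.91 for Lpl and -0.58 to 0.070 for Itgax. At 5 days it ran from -0.16 to 0.11 for Tyrobp, -0.15 to 0.45 for Spp1, -0.27 to 0.037 for Cd9 and -0.23 to 0.031 for Apoe. The difference of injury changes ran from -0.39 to 0.22 for Trem2, -0.090 to 0.38 for Tyrobp, -0.14 to 0.14 for Apoe, -0.25 to 0.83 for Lpl, -0.64 to 0.051 for Itgax and -0.62 to 0.46 for Cd36. Itgax in intact nerve rests on 9 to 31 counts per library, so small differences there were not detectable.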
